A study of Mus musculus with 3 samples.

Results

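The genes described here are 10 that write, copy, erase or protect DNA methylation: Dnmt1, Uhrf1, Dnmt3a, Dnmt3b, Dnmt3l, Tet1, Tet2, Tet3, Zfp57 and Trim28. They were taken as all probe sets whose single gene symbol in the platform's annotation was one of these names, which gave 23 of the 45101 probe sets on the array, with 1 to 5 for each gene. The RNA came from whole embryos of the mouse, taken 8.5 days post coitum (dpc), and each of 3 Affymetrix arrays held a pool of litter mates of mixed sex. A single array of 6 pooled C57Bl/6J embryos served as the normal group. There were 2 mutant arrays, of 8 and 6 pooled embryos, labelled Dnmt3l-/+ on a C57Bl/6J background; each embryo had a Dnmt3l-/- dam and a wildtype sire, so it carried a wildtype paternal copy of the gene. The mutant arrays are called mutant 1 and mutant 2 here, after the replicate numbers in the labels. The comparison asks whether transcripts of the methylation machinery differed in embryos whose mothers lacked Dnmt3l, a group the series title calls maternal methylation-deficient. DNA methylation itself was not measured.

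DNA methylation in mammals sits on the cytosine of CpG dinucleotides. Dnmt3a and Dnmt3b place it on unmethylated DNA, and Dnmt3l, which has no catalytic activity of its own, binds and stimulates them; in the growing oocyte it is needed to set maternal imprints. Uhrf1 recognises hemimethylated DNA after replication and brings in Dnmt1, which copies the mark to the new strand. Tet enzymes oxidise methylcytosine as a step towards its removal. Zfp57 binds a methylated hexamer in imprint control regions and recruits Trim28, a scaffold for histone methyltransferases and DNA methyltransferases, which keeps imprints through the wave of demethylation after fertilisation.

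No probe set of these genes differed between the mutant and normal groups by the test used. Of the 23 probe sets, 20 from 8 genes passed a filter on dim signals, and 0 of these 20 passed limma at an adjusted p of 0.05, with 0 also at an unadjusted p under 0.05. Over the whole array 0.577% of the 27022 kept probe sets passed at the adjusted threshold, and 13.6% had an unadjusted p under 0.05. The lowest adjusted p among the 20 was 0.433, for Uhrf1. None of the 20 was at least 2-fold higher or lower in both mutant arrays, against 2.57% of kept probe sets higher and 1.90% lower. The median size of the log2 difference, ignoring its sign, was 0.21 for the 20 and 0.29 for all kept probe sets. With 1 normal and 2 mutant arrays the spread came from the mutant pair alone, the normal array was taken to vary alike, and an exact permutation test of a single gene could not go below a two-sided p of 0.333. In bulk RNA, fewer cells of a type and less RNA per cell cannot be told apart.

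**Figure D1:**
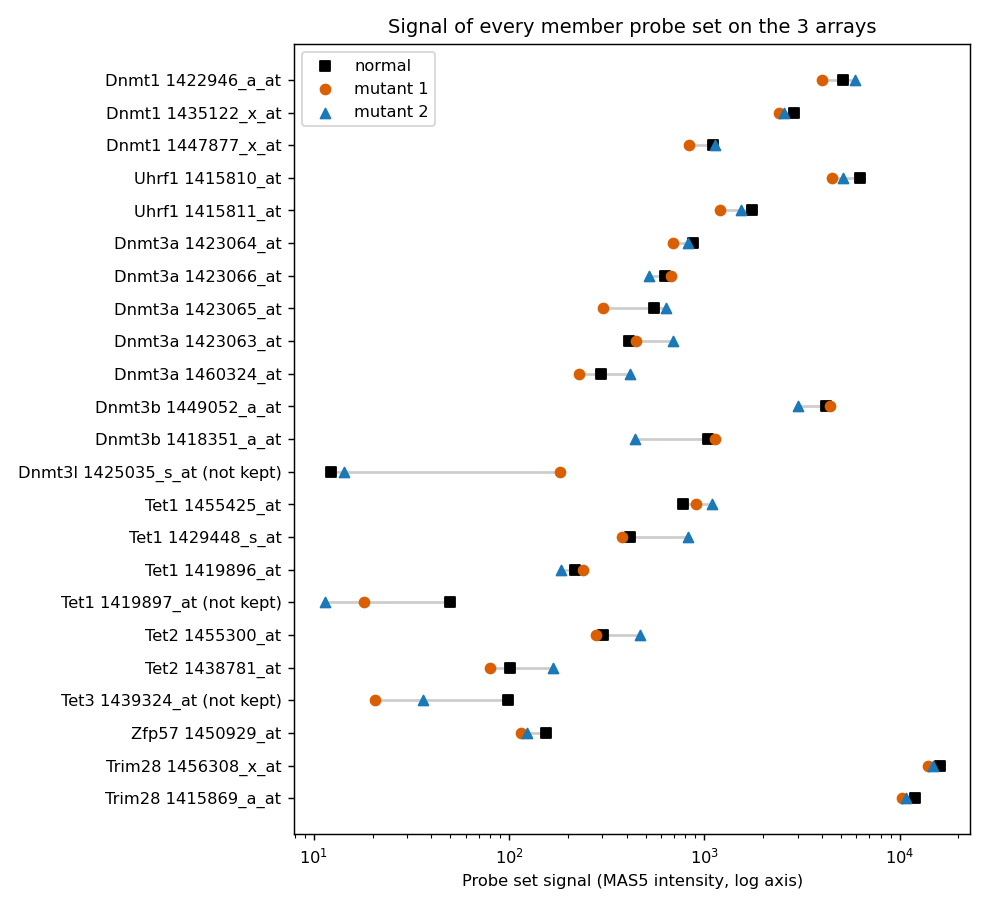
Signal of each of the 23 probe sets on a log axis (MAS5 intensity), 1 point for the normal array and 1 for each mutant array, joined by a grey line over their range. Trim28 points lie close together, while Dnmt3l has 1 point at 183 apart from the others at 12.2 and 14.3. Levels of different probe sets are not comparable.

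Because CpG is the substrate of these enzymes, the upstream sequence of a pair of the genes is shown with every CpG in capitals. Dnmt3l is shown as the gene mutated in the dams and the member on which the mutant arrays disagreed most, and Trim28 as a member on which they agreed closely. Each line gives the 250 bases before an annotated start, from RefSeq on GRCm38.p6, both on the plus strand, at chr10:78042037-78042286 for Dnmt3l (the richest in CpG of its 3 annotated starts) and chr7:13023902-13024151 for Trim28.
Dnmt3l: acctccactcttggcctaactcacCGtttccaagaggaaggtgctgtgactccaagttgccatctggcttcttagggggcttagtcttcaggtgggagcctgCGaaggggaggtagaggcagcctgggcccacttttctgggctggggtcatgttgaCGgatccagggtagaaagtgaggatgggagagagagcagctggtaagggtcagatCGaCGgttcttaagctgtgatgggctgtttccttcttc
Trim28: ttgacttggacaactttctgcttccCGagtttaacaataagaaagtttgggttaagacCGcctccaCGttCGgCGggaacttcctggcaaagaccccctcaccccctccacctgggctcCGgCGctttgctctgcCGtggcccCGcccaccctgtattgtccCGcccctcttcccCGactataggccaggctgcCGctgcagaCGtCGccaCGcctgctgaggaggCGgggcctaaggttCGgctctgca

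The Dnmt3l window held 5 CpG and the Trim28 window 17, against a median of 6 over all 32851 annotated windows of this length. All 10 genes matched the table, with 19 windows and a median of 15 CpG, and 13 of the 19 held more than the 6 CpG that are the median of all windows. Tet2 had 51 CpG, and the 3 Zfp57 windows had 7, 6 and 3. TGCCGC, the hexamer that Zfp57 recognises when it is methylated, was searched on both strands. It occurred in 3 of the 19 windows, 1 each of Trim28, Tet3 and Dnmt3a, and in 8.7% of all windows. These counts describe the letters in the windows only.

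Dnmt3l, the mutated gene, gave no usable check of the labels. Its 1 probe set (1425035_s_at) read 12.2 on the normal array, 183 in mutant 1 and 14.3 in mutant 2. The normal array and mutant 2 were thus both near the bottom of the range and mutant 1 alone stood apart, with a difference between the mutant arrays of -2.22 (log2 of mutant 2 over mutant 1). All log2 values here are of signal plus a pseudocount of 31.9, which understates the change of dim genes. The probe set did not pass the filter on dim signals, and without that filter limma gave a log2 difference of 1.18 (SE 0.97, adjusted p = 0.737, n = 2 mutant arrays against 1). The mutation lies in the dams and on the maternal allele, and whether the probes fall inside the deleted sequence was not analysed here.

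Copying enzymes came next. Dnmt1, the maintenance methyltransferase, has 3 probe sets. The brightest (1422946_a_at) read 5102 on the normal array, 3985 in mutant 1 and 5936 in mutant 2, so the mutant arrays lay on either side of the normal one. Its log2 difference was -0.07 (SE 0.27, adjusted p = 0.935, limma), with a 95% interval from -0.73 to 0.60. A further probe set (1447877_x_at) read 1113, 839 and 1137 in the same order and also lay on either side. Only 1435122_x_at was lower in both mutant arrays, at 2883 against 2402 and 2559, a log2 difference of -0.22 (SE 0.19, adjusted p = 0.679, limma). Names ending in x_at mark probe sets whose probes may also bind other sequences. Mutant 1 was the lowest array on all 3 Dnmt1 probe sets, and also on every probe set of Uhrf1, Tet2, Tet3, Zfp57 and Trim28. The median signal of all probe sets was 130 in mutant 1, 140 in mutant 2 and 144 on the normal array.

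Uhrf1, the partner that brings Dnmt1 to newly copied DNA, had both probe sets lower in both mutant arrays. The brighter one (1415810_at) read 6263 on the normal array and 4511 and 5157 in mutants 1 and 2, a mutant mean of 4834 ± 457 (SD, n = 2). Its log2 difference was -0.37 (SE 0.18), a ratio of 0.771 with a 95% interval from 0.569 to 1.05, and it did not pass (adjusted p = 0.433, limma). The other (1415811_at) read 1744, 1196 and 1537, with a log2 difference of -0.36 (SE 0.24). The arrays did not overlap between groups on either probe set, but 42.5% of all kept probe sets were also below the normal array in both mutants, and the pair come from 1 source sequence. Among replication and proliferation genes, 14 of 15 were measured and kept. Of these 6 were lower and 5 higher in both mutant arrays, against 39.1% and 36.5% of all genes tested. None passed, and the median log2 difference was -0.12. The part of these genes in the Uhrf1 values was not tested.

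Of the enzymes that methylate new sites, Dnmt3a had 5 probe sets, all named from 1 source sequence. They differed in sign, with log2 differences from -0.30 to 0.40. The brightest (1423064_at) read 876 on the normal array and 690 and 828 in mutants 1 and 2, and was lower in both, with a log2 difference of -0.20 (SE 0.25, adjusted p = 0.774, limma). In contrast, 1423063_at read 412 against 446 and 692 and was higher in both, at 0.40 (SE 0.34, adjusted p = 0.660, limma). The remaining 3 lay on either side of the normal array. The widest of them, 1423065_at, read 551 on the normal array, 302 in mutant 1 and 638 in mutant 2, so the mutant arrays differed from each other by 1.00 on the log2 scale. The mean over the 5 probe sets gave a log2 difference of -0.02.

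Dnmt3b, the other de novo enzyme and the one most associated with the early embryo, was close to normal in mutant 1 and lower in mutant 2. Its brighter probe set (1449052_a_at) read 4197 on the normal array, 4398 in mutant 1 and 3030 in mutant 2. The dimmer one (1418351_a_at) read 1043, 1128 and 443 in that order. Both thus showed the same order of arrays, with mutant 1 highest and mutant 2 lowest. The log2 differences from normal were -0.20 (SE 0.26) and -0.54 (SE 0.53), with adjusted p of 0.790 and 0.715 by limma. Between the mutant arrays the dimmer probe set differed by 1.29 in absolute log2 units, a value at or above that of 97.8% of kept probe sets.

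**Figure D2:**
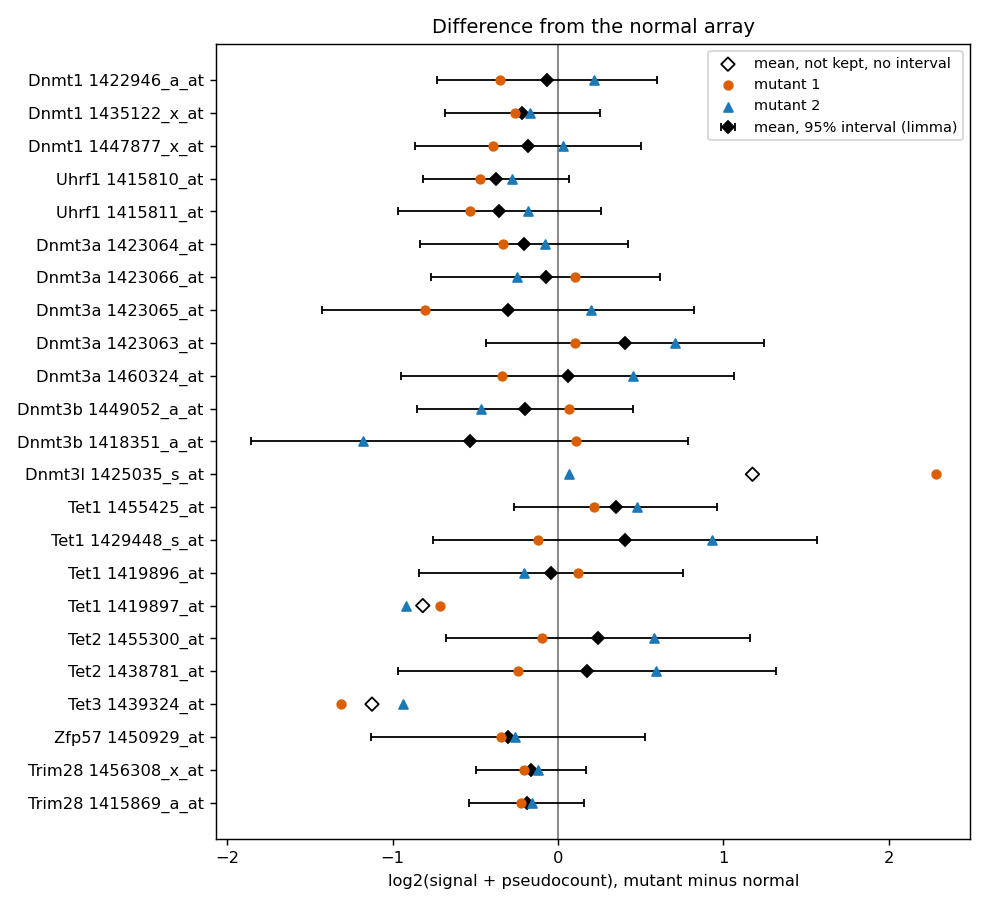
Log2 difference of each probe set from the normal array, with circles for mutant 1, triangles for mutant 2 and diamonds for their mean; bars are limma's 95% intervals, drawn for the 20 kept probe sets. Every interval includes 0, and the dimmer Dnmt3b probe set has the lowest bound, -1.86.

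Among the erasers, Tet1 and Tet2 had 6 probe sets, and none of the 5 kept passed. Mutant 2 was higher than mutant 1 on 4 of the 6. It was also higher on every probe set of Dnmt1, Uhrf1, Tet3, Zfp57 and Trim28. The brightest Tet1 probe set (1455425_at) read 779 on the normal array and 911 and 1097 in mutants 1 and 2, and was higher in both. Its log2 difference was 0.35 (SE 0.25, adjusted p = 0.599, limma). Of all kept probe sets, 32.2% were likewise above normal in both mutant arrays. A further Tet1 probe set (1429448_s_at) read 415, 379 and 821, so mutant 2 alone was high, and 1419896_at read 217, 238 and 184, with mutant 2 the lowest. The dimmest (1419897_at) read 50.1, 18.1 and 11.4 and did not pass the filter. Without the filter, limma gave it a log2 difference of -0.82 (SE 0.27, unadjusted p = 0.0324, adjusted p = 0.420). Both of its mutant signals were below the pseudocount of 31.9. Tet1 probe sets therefore spanned log2 differences from -0.82 to 0.41.

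Tet2, an eraser best known from blood cells, had 2 probe sets with the same order of arrays. The brighter (1455300_at) read 302 on the normal array, 280 in mutant 1 and 467 in mutant 2. The other (1438781_at) read 101, 80.3 and 168. Mutant 1 was slightly below normal and mutant 2 above it on both, with log2 differences of 0.24 (SE 0.37) and 0.18 (SE 0.46) and adjusted p of 0.826 and 0.900 by limma. Embryonic erythroid genes were higher in both mutant arrays for 10 of the 10 kept, against 36.5% of all genes tested. Of these, 2 passed, against 0.759% of all genes, and 0 passed without the filter or without the variance trend. Their summed signal was 34586 on the normal array against 70281 and 70645. The part of these genes in the Tet2 values was not tested.

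Tet3, the eraser that acts on the paternal genome in the zygote, was dim. Its 1 probe set (1439324_at) read 98.5 on the normal array and 20.7 and 36.1 in mutants 1 and 2, lower in both, and the filter removed it. Fitted without the filter, limma gave a log2 difference of -1.12 (SE 0.36, unadjusted p = 0.0312, adjusted p = 0.415). Both mutant signals were near the pseudocount, so the size of this difference depends on it.

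The protectors of imprints were measured on 3 probe sets, all lower in both mutant arrays, as were 42.5% of all kept probe sets, and none passed. Zfp57, the zinc finger protein that recognises methylated imprint control regions, read 154 on the normal array and 115 and 123 in mutants 1 and 2 (1450929_at). Its log2 difference was -0.30 (SE 0.33, adjusted p = 0.743, limma), with a 95% interval from -1.13 to 0.52. Trim28, its partner, read 16034 against 13898 and 14740 on 1456308_x_at, and 11960 against 10250 and 10720 on 1415869_a_at. These log2 differences were -0.16 (SE 0.13) and -0.19 (SE 0.14), with adjusted p of 0.651 and 0.612 by limma. The Trim28 interval was the narrowest of all, from -0.50 to 0.17 on 1456308_x_at, which corresponds to ratios from 0.709 to 1.12. Mutant 1 was the lowest array on all 3 probe sets, as it was on every probe set of Dnmt1, Uhrf1, Tet2 and Tet3. The mutant pair differed by at most 0.085 on the log2 scale.

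How closely a change was bounded differed between members. For 12 of the 20 kept probe sets the 95% interval lay inside 2-fold in either direction. These were all probe sets of Dnmt1, Uhrf1 and Trim28, 2 of Dnmt3a, 2 of Tet1 and 1 of Dnmt3b. The Tet2 and Zfp57 probe sets, and the remaining ones of Dnmt3a, Dnmt3b and Tet1, allowed a larger change in at least 1 direction, up to a log2 difference of 1.57 for Tet1 and down to -1.86 for Dnmt3b.

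The spread between the mutant pair entered every comparison. Over the 20 kept probe sets the median absolute log2 difference between mutant 1 and mutant 2 was 0.39, against 0.24 over all kept probe sets. The mutant arrays lay on either side of the normal one for 11 of the 20, both above it for 2 and both below it for 7. Over all kept probe sets 32.2% were above and 42.5% below in both. Since both differences share the normal array, no correlation between them is given.

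**Figure D3:**
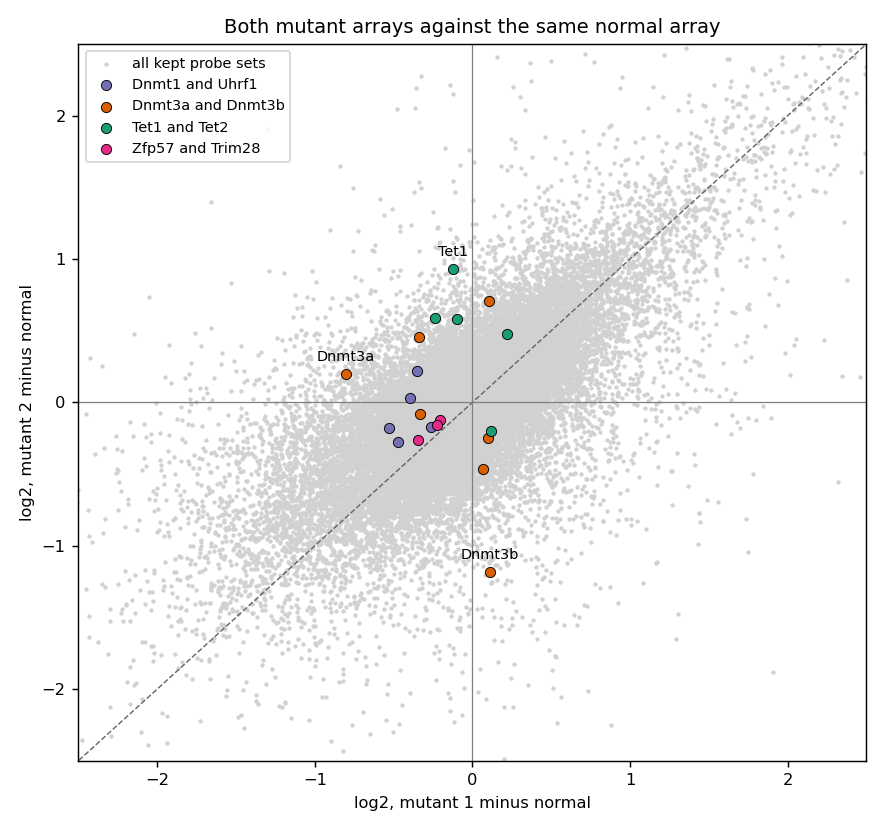
Log2 difference from the normal array in mutant 1 (horizontal) and mutant 2 (vertical); grey points are kept probe sets, of which 174 lie beyond 2.5 and are not drawn, and coloured points are the 20 kept member probe sets. The dashed line marks equal values. Dnmt3b lies below it, and most Tet1, Tet2 and Dnmt3a points lie above it. All Dnmt1, Uhrf1, Zfp57 and Trim28 points lie above it too.

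Genes that work with these enzymes were followed through 8 lists of 82 genes in all. Of these, 73 were measured by a probe set of their own, 54 passed the filter, and 0 passed limma in either direction, against 0.759% of all 12913 genes tested. Each gene stands by its brightest kept probe set. At an unadjusted p under 0.05 there were 7 genes, 2 higher and 5 lower, against 12.3% of all genes tested. Of the 54, 15 were above the normal array in both mutants (36.5% of all genes) and 25 below it (39.1%). The median log2 difference was -0.03 over the 54 and -0.02 over all genes tested.

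Partners of maintenance methylation were measured for 9 of 9 genes. Of these, 6 were lower and 0 higher in both mutant arrays, against 39.1% and 36.5% of all genes tested. Their median log2 difference was -0.18 (-0.30 with the mean over each gene's probe sets). Cdca7, which works with the chromatin remodeller Hells, had the lowest adjusted p of all 54 genes. It read 5123 on the normal array and 3079 and 2561 in mutants 1 and 2, a log2 difference of -0.86 (SE 0.20, adjusted p = 0.185, limma), and its other probe set gave -1.14. Ehmt1, a histone H3 lysine methyltransferase, read 4122 against 2965 and 3015, a log2 difference of -0.46 (SE 0.18, adjusted p = 0.358, limma). Its partner Ehmt2 had -0.27. Pcna, the replication clamp, read 14933, 15459 and 14463 and did not separate the groups.

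Factors that guide new methylation were measured for 8 of 8 genes. Of these, 3 were higher and 4 lower in both mutant arrays, against 36.5% and 39.1% of all genes tested. Their median log2 difference was 0.04. The sign of this median turned with the mean over each gene's probe sets (-0.11) and with quantile normalization (-1.92e-04). Setd2, which writes the histone mark that Dnmt3b reads in gene bodies, read 927 on the normal array and 1324 and 1609 in the mutants, a log2 difference of 0.64 (SE 0.24, adjusted p = 0.343, limma). Kdm1b, a histone demethylase needed for maternal imprints in the oocyte, had 0.38, and Eed, a Polycomb subunit, had 0.16, with a dimmer probe set at -0.38.

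Corepressor partners of Trim28 had a median of -0.02 over 9 of 9 genes, and of -0.13 with the mean over each gene's probe sets. By the brightest probe set 1 was higher and 6 lower in both, against 36.5% and 39.1% of all genes tested. Atf7ip, the partner of the methyltransferase Setdb1, read 1509 on the normal array and 552 and 991 in the mutants, a log2 difference of -0.995 (SE 0.37, adjusted p = 0.347, limma). Its probe sets disagreed, the highest being at -0.00342. The heterochromatin protein genes Cbx1 and Cbx3 had -0.22 and -0.28. Setdb1 itself read 1751, 1718 and 1728 on its brightest probe set, while its probe sets ranged from -0.11 to 0.31 in log2 difference.

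Other imprint protection factors were kept for 5 of 11 genes, with a median of -0.07. That median was -0.22 with the mean over each gene's probe sets and 0.045 without the filter. Mbd3 read 1548 against 1426 and 914, a log2 difference of -0.43 (SE 0.31), Ctcf, which binds the unmethylated allele at some imprinted loci, had -0.17, and Arid4a had 0.16. The last pair each had a dimmer probe set of the opposite sign. Dppa3, which shields the maternal genome from demethylation in the zygote, read 109, 109 and 95.6.

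Active demethylation partners were kept for 10 of 13 genes, with a median of 0.05 (0.18 with the mean over each gene's probe sets). Mbd4, a glycosylase that repairs deaminated methylcytosine, read 717 against 465 and 410, a log2 difference of -0.68 (SE 0.26, adjusted p = 0.356, limma), though the highest of its probe sets was at 0.02. Gadd45b, a stress-induced gene linked to demethylation, had 0.42, with another probe set at -0.19, and Cxxc4, a CpG-binding partner of Tet2, had -0.50. Idh1, an enzyme that makes the co-substrate of the Tet enzymes, read 1305, 838 and 2835, so the mutant arrays lay on either side of normal. This gene was picked after its values were seen.

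Readers of methylated CpG were kept for 5 of 6 genes, with a median of 0.34, which was 0.56 in mutant 2 and -0.10 in mutant 1. With the mean over each gene's probe sets the median was 0.041. Mbd2 read 466 on the normal array and 745 and 762 in the mutants, a log2 difference of 0.66 (SE 0.24, adjusted p = 0.341, limma), and its other probe set gave 0.40. Zbtb38 had 0.45 and Zbtb33 -0.34, and each had a dimmer probe set of the opposite sign. Methyl donor genes were kept for 6 of 11, with a median of 0.03 (-0.0084 without the filter). Mtr, methionine synthase, read 1185 against 682 and 590, a log2 difference of -0.87 (SE 0.25, adjusted p = 0.239, limma), while its other probe set was at -0.06. Shmt1 and Shmt2, which feed carbon units into the same cycle, had 0.32 and 0.23, and each had a dimmer probe set just below 0.

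Germline genes that promoter methylation keeps silent in somatic cells were near the floor. Of 15, 14 were measured and 2 kept, Asz1 (111 on the normal array, 139 and 193 in the mutants, log2 difference 0.45, SE 0.35) and Tdrkh (-0.11). Neither passed. Without the filter, 7 of the 14 were higher and 2 lower in both mutant arrays, against 32.6% and 39.4% of all 45037 probe sets analysed.

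**Figure D4:**
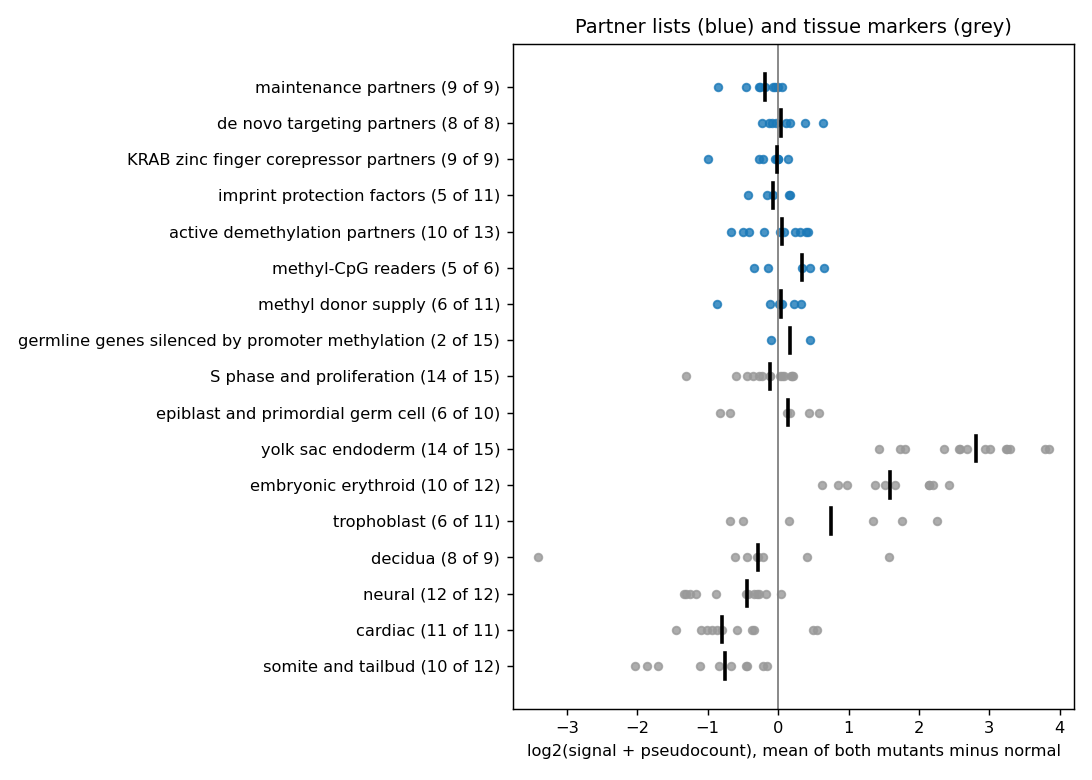
Log2 difference of each kept gene (points) and the median of each list (bars), for partner lists in blue and tissue marker lists in grey; brackets give genes kept of genes listed. Partner lists centre between -0.18 and 0.34, while yolk sac endoderm genes centre at 2.80.

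The pools differed in tissue markers, and these values stand beside every result above. Yolk sac endoderm genes were higher in both mutant arrays for 14 of the 14 kept of 15 listed, and 13 passed limma. Their summed signal was 20470 on the normal array against 111446 and 118866. Of all genes tested, 36.5% were above and 39.1% below the normal array in both mutants, and 0.759% passed. All calls in the marker lists, like those over the whole array, were lost (0 called by limma) without the filter on dim signals and without the variance trend. Markers of the embryo's own tissues were present on every array but lower in sum. Neural genes summed to 8151 on the normal array and 4222 and 6446 in mutants 1 and 2, with 9 of 12 lower and 0 higher in both. Cardiac genes summed to 35332, 20653 and 26665, with 8 of 11 lower and 2 higher in both. Somite and tailbud genes summed to 6708, 3586 and 4441, with 8 of 10 kept lower and 0 higher in both. None of the genes in these 3 lists passed. Trophoblast genes summed to 3388, 6239 and 5320. Of the 6 kept, 3 were higher and 2 lower in both mutant arrays, with 1 passing as higher. Decidua genes had 5 of 8 kept lower and 2 higher in both mutant arrays, a median log2 difference of -0.29, and 1 passing as lower. They summed to 3740, 2577 and 4481, and to 3295, 1828 and 1951 without Lum. Epiblast and germ cell genes were kept for 6 of 10, with 4 higher and 2 lower in both mutant arrays and a median of 0.14. Their sum, 7084, 5436 and 5700, was lower in the mutants, with Sox2 at 3432, 1503 and 2472, and Pou5f1 and Nanog did not pass the filter. The part of these tissue differences in the values of the methylation genes was not tested.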

How the data were processed

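Per the labels, biotin-labelled cRNA was made from Trizol-extracted total RNA. The authors deposited a linear intensity for each probe set and array; GCOS and MAS5 are the tools in the submitters' processing notes, which give no versions. Each array's values had been brought to a common mean of 500 (2% trimmed at both ends). Median signals ran from 130 to 144, and only 3 arrays limit the precision. The 64 control probe sets were left out. In the platform annotation 34945 of the other 45037 had 1 symbol, 932 several and 9160 none; no probe set with several symbols included a member.

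Log2 of signal plus 31.9 (the median over arrays of the 20th percentile) was fitted with limma 3.58.1 in R 4.3.3 (lmFit, eBayes with a variance trend, two-sided, Benjamini-Hochberg over all 27022 probe sets at or above the 40th percentile of mean log2 value; 1 residual and 4.52 prior degrees of freedom). The fit was tested on 20 simulated data sets with 200 changed probe sets each. It recovered 39.7% of changes of 1 log2 unit, 97.5% of 2 and 100% of 3, with a mean of 8.75 false calls. A 2-fold change in a member could thus have been missed. Members and lists were chosen with earlier results of these data known. All members are named; each partner list gave the genes that passed and up to 3 with the largest change of the same sign in both mutant arrays, and other genes (Pcna, Setdb1, Dppa3, Idh1, Tdrkh, Lum, Sox2) were named after their values were seen. Alternatives changed the pseudocount, the scaling, the filter, the variance model, the probe set rule and the arrays used. The marker lists' calls without the filter or trend, and the decidua sum without Lum, were added after seeing the data.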

Additional observations from a re-analysis of the deposited data

How the results depend on the processing

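Of the 20 kept probe sets, 0 passed under any of the 8 alternatives that used all arrays, with the lowest adjusted p between 0.397 and 0.609 (limma). Of the 20, 17 kept their sign under each of these alternatives that kept them, all of which used the same 3 arrays. The stricter filter removed 3, which were Tet1 1419896_at, Tet2 1438781_at and the only Zfp57 probe set, 1450929_at. The probe sets that did not keep their sign turned at values near 0. With median centring Dnmt1 1422946_a_at was at 0.0066, Dnmt3a 1423066_at at 6.14e-05 and Tet1 1419896_at at 0.033, and the last was at 0.037 with quantile normalization and 0.042 with cyclic loess. Median centring takes the same value from every probe set of an array, so it moves all log2 differences by the same amount. The cause of the turns under the other settings was not tested. The number of intervals inside 2-fold ran from 9 (no variance trend) to 14 (doubled pseudocount). The count of probe sets called over the whole array, 156, was 287 with median centring, 0 without the filter on dim probe sets (4874 at an unadjusted p under 0.05) and 0 without a variance trend (3455). No partner gene passed with quantile normalization, without the filter or with the mean of a gene's probe sets. Leaving out a mutant array leaves 1 array a group and no test. Each array's own values are in the text, and for 11 of the 20 the mutant arrays lay on either side of normal. No paired analysis was possible because there was a single normal array and the labels pair it with neither mutant array. Low signals limit what Dnmt3l, Tet3, Zfp57 and the germline genes can show.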

Other observations

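Among the partner genes that the filter on dim signals removed, a few read near the floor on the normal array and higher in both mutant arrays. They were picked after their values were seen, and the share of all dim probe sets with this pattern was not counted. Other removed partner genes were lower in both mutant arrays. Examples are Hormad1 (18.9 on the normal array against 8.22 and 2.39) and Bhmt (88.1 against 39.3 and 62.7). Slc25a31, a mitochondrial carrier gene of the germline list, read 2.00 on the normal array and 71.5 and 68.0 in mutants 1 and 2, and Ddx4, a germ cell RNA helicase gene, read 42.1 against 114 and 103. Zfp42, a zinc finger gene of pluripotent cells and trophoblast on the imprint protection list, read 39.4 against 138 and 148. Nlrp5, a maternal factor of the egg, read 8.06 against 41.2 and 74.7. Fitted without the filter, limma gave log2 differences of 1.58 (SE 0.31, adjusted p = 0.308) for Slc25a31, 0.92 (SE 0.38, adjusted p = 0.501) for Ddx4, 1.30 (SE 0.38, adjusted p = 0.394) for Zfp42 and 1.14 (SE 0.37, adjusted p = 0.420) for Nlrp5, so none passed.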
